A study of Mus musculus with 6 samples.

Results

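Macrophage markers were followed in whole mouse kidneys in which the Notch2 pathway was switched on. The set comprised 10 genes, chosen by name and found as rows of the deposited expression table: Csf1r, Adgre1, Cd68, Aif1, Cd163, Mrc1, Tyrobp, Fcgr3, Cd14 and Lyz2. All 10 had values, among 19503 rows with values. The libraries fell into 2 groups of 3. By genotype the first group was wild type. The second was R26NICD2/+pax8cre, here NICD2_Pax8, with an allele at the Rosa26 locus for the intracellular domain of Notch2 and a driver named for Pax8, a transcription factor of the renal tubule. All mice were 8 weeks old. In the title of the series the driver is Pax-rtTA and not pax8cre, and the wild-type libraries too have titles that begin with NICD. Which driver was used, and whether wild-type mice carried the allele without a driver, cannot be told from the labels. Nothing in the labels ties each library to its own animal, and p-values therefore measure the spread between libraries, which may be technical.

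Macrophages enter and persist in the kidney under the control of the receptor encoded by Csf1r, which binds the growth factors CSF1 and IL-34. They sense bacterial and damage products through surface receptors such as CD14, bind antibody through Fc receptors, and signal through small adaptor proteins such as the product of Tyrobp. Macrophages are known to accumulate around tubules in injured and cystic kidneys. Several of the genes are not exclusive to macrophages: monocytes, granulocytes and injured tubule cells can carry Cd14, granulocytes and lung epithelium can carry Lyz2, and lymphatic and some other endothelial cells can carry Mrc1. In whole tissue a difference in the number of cells of a type and a difference in RNA per cell cannot be told apart.

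Expression was measured as FPKM, a fragment count divided by transcript length and by library depth. Estimated from the steps between low values, depth ran from 14600000 to 15100000 fragments for wild type and from 16200000 to 17800000 fragments for NICD2_Pax8. A row named NOTCH2 in capitals stood at 1.27 to 3.75 FPKM in wild type and at 500.5 to 570 FPKM in NICD2_Pax8, so the libraries sort as labelled. Kidney genes were present throughout, with 9 of 10 nephron markers called lower in NICD2_Pax8 and Umod, of the thick ascending limb, not called. Wild-type replicate 1 stood apart. Its 8 adrenal cortex markers summed to 4701 FPKM against 2.25 to 3.47 FPKM in the other 5 libraries, and its 10 adipocyte markers to 4773 FPKM against 955.8 and 160.6 FPKM in wild-type replicates 2 and 3 and 64.9 to 438 FPKM in NICD2_Pax8. For this reason each marker is given by library, and each test also without this library.

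Of the 10 macrophage markers, 6 rose in the NICD2_Pax8 kidneys: Cd14, Lyz2, Fcgr3, Tyrobp, Cd68 and Mrc1. The rises ran from 2.11-fold for Mrc1 to 10.4-fold for Cd14 in mean FPKM. Csf1r, Adgre1, Aif1 and Cd163 did not pass the test. The test was limma on log2(FPKM + 1), with a Benjamini-Hochberg adjusted p under 0.05 called. Of all 13500 genes tested, 45.1% were called higher and 16.2% lower, so the share of markers called higher stands against a high background. With limma 0 markers were called lower, 0 were lower at an unadjusted p under 0.05, and 0 were lower at a q under 0.05 in the authors' deposited table.

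FPKM values in NICD2_Pax8 were shifted upward as a whole: the median log2 fold change of all genes tested was 0.32. Scaling the libraries by the median of ratios removed this shift, to a median of -0.0018. After scaling 6 markers were again called higher and 0 lower, against 27.6% and 27.0% of all genes. Without wild-type replicate 1, 8 markers were called higher, Adgre1 and Aif1 in addition, against 50.4% of all genes. With scaling and without that library the count was also 8, against 30.0% of all genes. The median log2 fold change of the markers was 1.15 as deposited and 0.83 after scaling. In 6 markers the 3 libraries of NICD2_Pax8 lay above all 3 wild-type libraries, as they did in 49.9% of all genes, and after scaling 6 markers were separated in this way against 32.9% of genes. Without wild-type replicate 1 the number was 8, against 58.2% of genes.

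**Figure D1:**
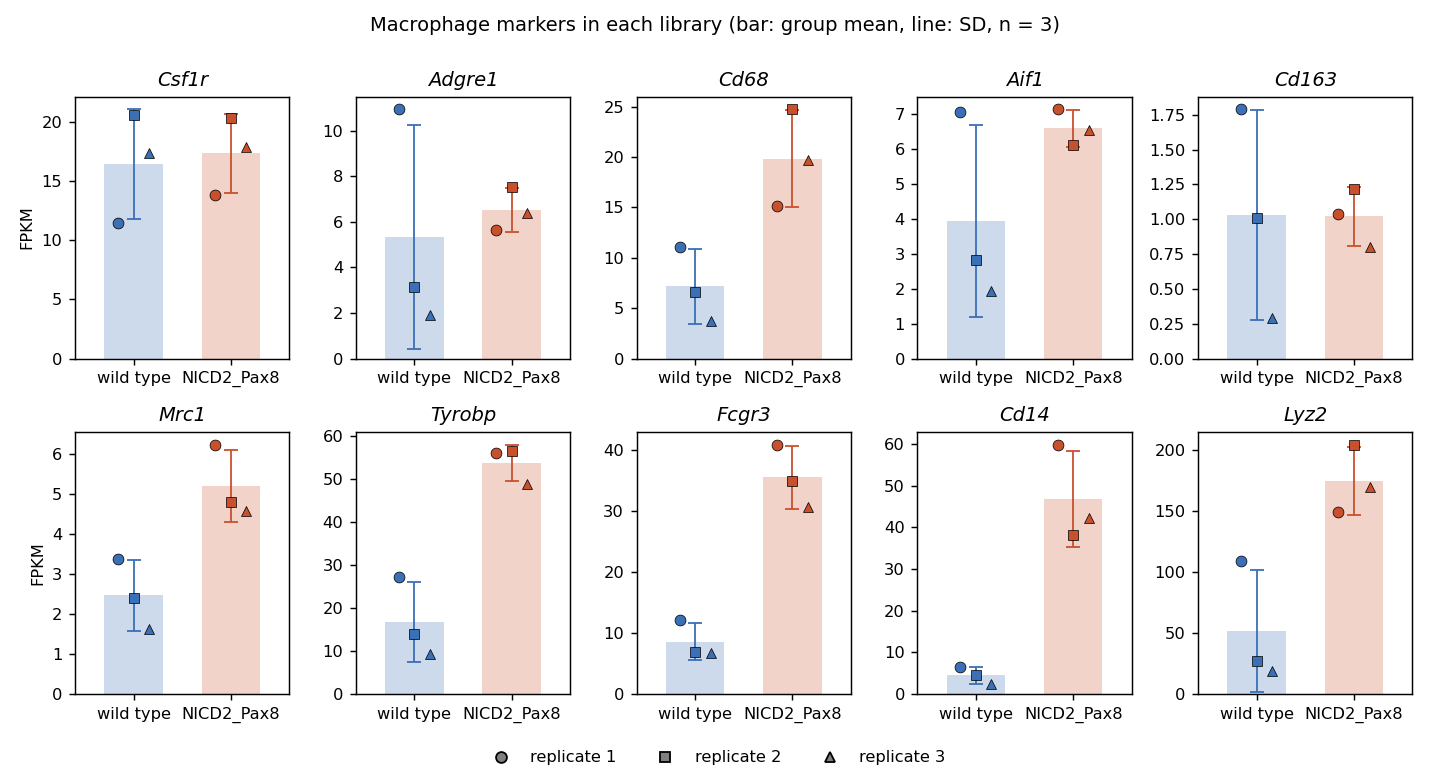
FPKM of the 10 macrophage markers in each of the 6 libraries, with bars for the group mean and lines for the SD (n = 3). Circles, squares and triangles are replicates 1 to 3; wild-type replicate 1 is the highest wild-type library for every marker except Csf1r, and Cd14, Fcgr3, Tyrobp, Cd68, Mrc1 and Lyz2 show no overlap between the groups.

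The receptors for microbial products and antibody, and the adaptor DAP12, all rose. Cd14 (gene 12475, 1 transcript) encodes the co-receptor that hands lipopolysaccharide to the receptor TLR4. It stood at 6.58, 4.48 and 2.43 FPKM in wild-type replicates 1 to 3 and at 59.9, 38.2 and 42.3 FPKM in NICD2_Pax8 replicates 1 to 3. The lowest NICD2_Pax8 library was far above the highest wild-type library. The log2 fold change was 3.17 (SE 0.31, limma adjusted p = 2.57e-04), and 2.83 after scaling (limma adjusted p = 3.91e-04).

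Fcgr3 (gene 14131, chromosome 1, 171051169 to 171065915) encodes a low-affinity receptor for immunoglobulin G that activates the cell. It stood at 12.1, 6.96 and 6.7 FPKM in wild type and at 41.0, 35.05 and 30.7 FPKM in NICD2_Pax8. The wild-type libraries were all well below the NICD2_Pax8 libraries, and replicate 1 was the highest of each group. The log2 fold change was 1.97 (SE 0.23, limma adjusted p = 4.93e-04), and 1.61 after scaling. The model of this gene in the file holds 9 transcripts, some under the authors' own identifiers. Its close relatives Fcgr2b and Fcgr4 lie beside it on the same chromosome, and how fragments shared between them were assigned is not given in the sources used here.

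Tyrobp (gene 22177, chromosome 7, 30413782 to 30417582) encodes DAP12, the signalling adaptor of several activating receptors of myeloid and natural killer cells. It stood at 27.1, 13.8 and 9.31 FPKM in wild type and at 56.0, 56.4 and 48.9 FPKM in NICD2_Pax8. The NICD2_Pax8 libraries lay close together, whereas wild-type replicate 1 had 2.34 times the mean of wild-type replicates 2 and 3. The rise was 3.21-fold in mean FPKM (log2 fold change 1.75, SE 0.34, limma adjusted p = 0.00415).

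Lyz2 and Cd68 encode products of the granules and lysosomes. Lyz2 (gene 17105, chromosome 10, 117277541 to 117282272), the lysozyme of macrophages and granulocytes, stood at 109, 27.1 and 18.7 FPKM in wild type and at 149.2, 204.8 and 170.1 FPKM in NICD2_Pax8. The groups did not overlap, but wild-type replicate 1 came closer to the NICD2_Pax8 libraries than to the other wild-type libraries. The rise was 3.39-fold in mean FPKM (log2 fold change 2.15, SE 0.60, limma adjusted p = 0.0182) and 7.63-fold without wild-type replicate 1. The call was lost without wild-type replicate 2 (limma adjusted p = 0.0599) and without NICD2_Pax8 replicate 2 (limma adjusted p = 0.0566).

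The neighbouring paralog Lyz1, the lysozyme best known from Paneth cells of the gut, may share fragments with Lyz2. Lyz1 stood at 9.18, 1.86 and 1.17 FPKM in wild type and at 9.41, 14.2 and 10.1 FPKM in NICD2_Pax8 (limma adjusted p = 0.0406, and 0.0819 after scaling), a rise of 2.76-fold in mean FPKM and 7.42-fold without wild-type replicate 1. Within a library Lyz1 was 0.0595 to 0.0843 times Lyz2, and the groups overlapped in this ratio. Both rows thus followed the same order of libraries.

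Cd68 (gene 12514, chromosome 11, 69664213 to 69666170) encodes a glycoprotein of late endosomes and lysosomes that is used to stain macrophages. It stood at 11.1, 6.58 and 3.75 FPKM in wild type and at 15.1, 24.8 and 19.6 FPKM in NICD2_Pax8. The groups did not overlap, with wild-type replicate 1 and NICD2_Pax8 replicate 1 nearest to each other. The rise was 2.78-fold in mean FPKM (log2 fold change 1.43, SE 0.35, limma adjusted p = 0.0105). It was 1.09 on the log2 scale after scaling (limma adjusted p = 0.0276).

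The scavenger receptors differed between themselves. Mrc1 (gene 17533, chromosome 2, 14229414 to 14332023), the mannose receptor, stood at 3.38, 2.39 and 1.61 FPKM in wild type and at 6.23, 4.79 and 4.57 FPKM in NICD2_Pax8. It was the marker with the smallest rise among those called (log2 fold change 0.86, SE 0.21, limma adjusted p = 0.0117), and 0.57 after scaling (limma adjusted p = 0.0386). Cd163 (gene 93671, chromosome 6, 124304636 to 124330529), the receptor that takes up haemoglobin bound to haptoglobin, stood at 1.79, 1.01 and 0.29 FPKM in wild type and at 1.04, 1.22 and 0.8 FPKM in NICD2_Pax8. All NICD2_Pax8 values of Cd163 lay inside the wild-type range. Its log2 fold change was 0.06 with a 95% interval of -0.61 to 0.73 (limma adjusted p = 0.871), and -0.11 after scaling. These values rest on about 19.1 to 114 fragments a library. The interval comes from the spread between libraries, and a change within it is not excluded.

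The receptor that sustains the lineage, the adhesion receptor Adgre1 and Aif1 did not pass the test with all 6 libraries. Csf1r (gene 12978), the receptor for CSF1 and IL-34, stood at 11.4, 20.6 and 17.3 FPKM in wild type and at 13.8, 20.4 and 17.9 FPKM in NICD2_Pax8. The groups overlapped over most of their range, and here wild-type replicate 1 was the lowest library. The log2 fold change was 0.09 with a 95% interval of -0.46 to 0.65 (limma adjusted p = 0.751), -0.27 after scaling and -0.13 without wild-type replicate 1. With scaling and without that library together it was -0.56 (limma adjusted p = 0.0403), a call of lower, where 28.7% of all genes were called lower.

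Adgre1 (gene 13733, chromosome 17, 57358581 to 57483529) encodes an adhesion receptor that marks mature mouse macrophages. It stood at 10.9, 3.13 and 1.89 FPKM in wild type and at 5.63, 7.55 and 6.4 FPKM in NICD2_Pax8. Wild-type replicate 1 was the highest of all 6 libraries, and the other wild-type libraries were the lowest. The log2 fold change was 0.52 with a 95% interval of -0.65 to 1.69 (limma adjusted p = 0.389). Without wild-type replicate 1 the difference was 2.60-fold in mean FPKM (log2 fold change 1.12, limma adjusted p = 0.0036).

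Aif1 (gene 11629, chromosome 17, 35170986 to 35176083) encodes an actin-bundling calcium-binding protein of macrophages and microglia. It stood at 7.05, 2.82 and 1.93 FPKM in wild type and at 7.13, 6.09 and 6.52 FPKM in NICD2_Pax8. As with Adgre1, the overlap came from wild-type replicate 1 alone. The log2 fold change was 0.76 with a 95% interval of -0.08 to 1.596 (limma adjusted p = 0.103), and 1.18 without that library (limma adjusted p = 0.00113).

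**Figure D2:**
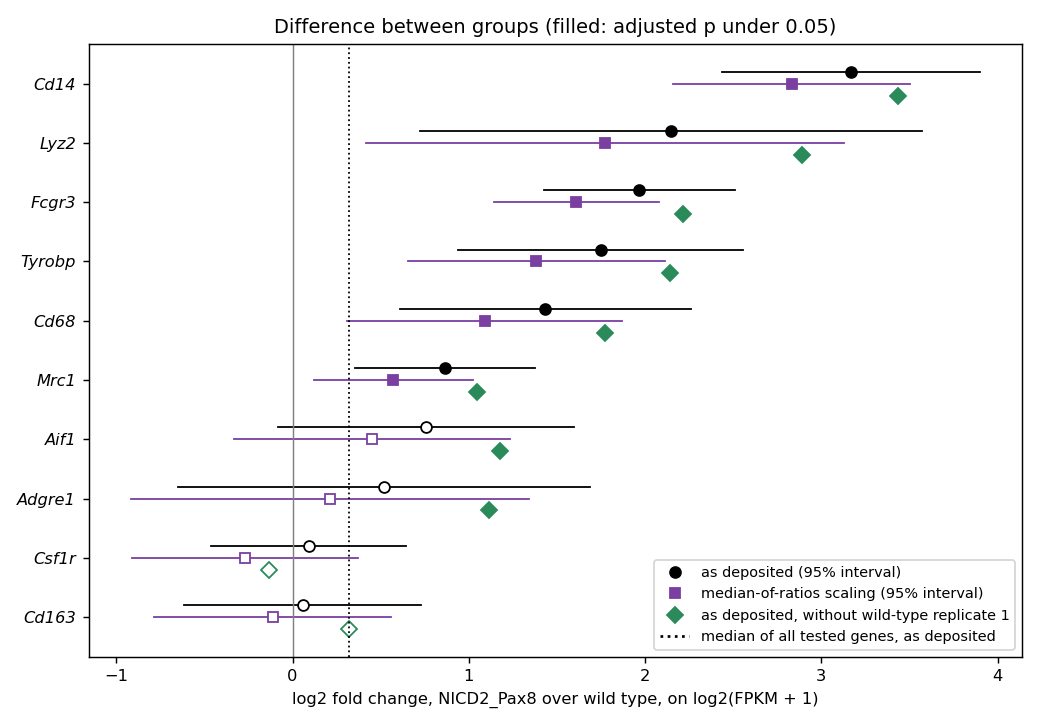
Log2 fold change of each macrophage marker, NICD2_Pax8 over wild type, on the log2(FPKM + 1) scale, as deposited (circles), after median-of-ratios scaling (squares) and without wild-type replicate 1 (diamonds); lines are 95% intervals of limma, drawn for circles and squares, and filled symbols were called. Cd14 lies farthest to the right at 3.17, and Adgre1 and Aif1 turn from open to filled without wild-type replicate 1.

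Wild-type replicate 1 was the highest wild-type library for 9 of 10 markers, as it was for 52.0% of all genes tested. In 9 markers it exceeded 1.5 times the mean of wild-type replicates 2 and 3, as it did in 14.7% of all genes. Its excess was 4.76-fold for Lyz2, 4.36-fold for Adgre1, 2.97-fold for Aif1 and 2.75-fold for Cd163, whereas Csf1r was at 0.604 times that mean. Wild-type replicate 3 was the lowest of its group for 9 markers. The summed FPKM of the 10 markers was 200.5, 88.9 and 63.9 in wild type and 355, 399 and 348 in NICD2_Pax8. The adipocyte sum given above had the same order over the wild-type libraries, and the adrenal sum was high in replicate 1 alone. The part of fat or adrenal tissue in the marker levels of that library was not tested, and the separation of the 6 called markers was present with that library and without it.

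The order of levels, which FPKM allows because it is per length, changed between the groups. In wild type the order of mean FPKM was Lyz2, Tyrobp, Csf1r, Fcgr3, Cd68, Adgre1, Cd14, Aif1, Mrc1 and Cd163, and each marker overlapped the next in its range over libraries. In NICD2_Pax8 it was Lyz2, Tyrobp, Cd14, Fcgr3, Cd68, Csf1r, Aif1, Adgre1, Mrc1 and Cd163. There Lyz2 lay above Tyrobp, Fcgr3 above Cd68, Csf1r above Aif1 and Mrc1 above Cd163 without overlap, and the remaining neighbours overlapped. Cd14 moved from rank 7 to rank 3, and Csf1r from rank 3 to rank 6.

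Ratios within a library do not depend on the scaling between libraries. Relative to Csf1r, 5 of the other 9 markers were higher in every NICD2_Pax8 library than in every wild-type library, namely Cd14, Fcgr3, Tyrobp, Lyz2 and Cd68, and without wild-type replicate 1 this held for 8 of 9, with Cd163 the exception. Cd14 was 0.575, 0.218 and 0.14 times Csf1r in wild type and 4.35, 1.88 and 2.37 times Csf1r in NICD2_Pax8. The Lyz2 ratio was 9.52, 1.32 and 1.08 in wild type and 10.8, 10.1 and 9.52 in NICD2_Pax8, so that wild-type replicate 1 all but reached the NICD2_Pax8 libraries. With 3 libraries against 3 an exact permutation test cannot go below p = 0.1, and no p is given for the ratios. Such a ratio shows unequal change of 2 genes and not which of them changed. The share of all genes whose ratio to Csf1r was higher without overlap was not counted. Without that share these counts cannot set the markers apart. For FPKM as deposited, a different measure, 49.9% of all genes were higher without overlap.

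**Figure D3:**
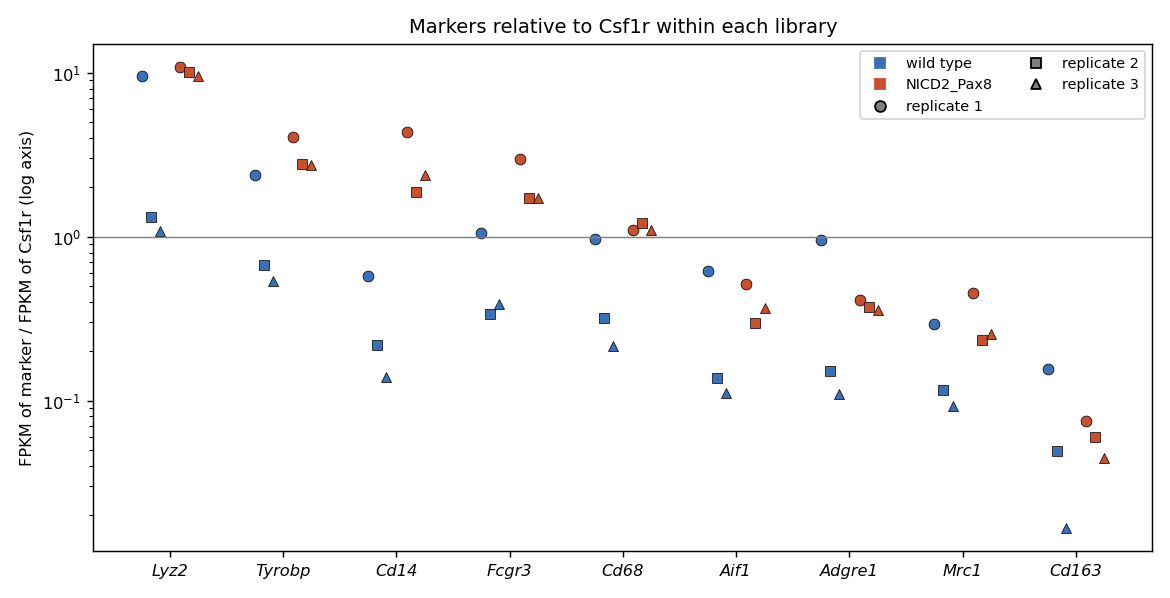
FPKM of each other macrophage marker divided by that of Csf1r in the same library, on a log axis, for 3 wild-type and 3 NICD2_Pax8 libraries. Cd14 shows the widest gap between the groups, and wild-type replicate 1 (blue circles) lies above the other wild-type libraries for all 9 ratios.

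Relative to a broader measure of leukocytes, fewer markers were higher without overlap. The 12 pan-leukocyte genes summed to 185.2, 89.2 and 76.9 FPKM in wild type and to 235.6, 279.2 and 275.6 FPKM in NICD2_Pax8. Of the 10 markers, 4 were higher relative to this sum in every NICD2_Pax8 library than in every wild-type library: Cd14, Lyz2, Fcgr3 and Tyrobp. Cd14 was 0.0355, 0.0502 and 0.0316 times the sum in wild type and 0.254, 0.137 and 0.153 times in NICD2_Pax8. Csf1r was 0.0618, 0.231 and 0.225 times the sum in wild type and 0.0585, 0.0729 and 0.0648 times in NICD2_Pax8, lower without overlap only when wild-type replicate 1 was left out. Relative to Ptprc, the gene of the common leukocyte antigen CD45, 7 markers were higher without overlap, Mrc1, Cd68 and Aif1 in addition to those 4. The share of all genes was not counted for these ratios either.

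Promoter sequence was available in RefSeq (GRCm38.p6) for 6 of the 10 markers. The letters GAGGAA, the core bound by PU.1, the Ets-family factor of the myeloid lineage encoded by Spi1, were searched on both strands in the 250 bases before the start. They occurred in 4 of the 6 (Fcgr3, Mrc1, Cd68 and Aif1) and in 23.3% of 32851 promoters of that length. The longer form GAGGAAGT, which contains the core, was found in 0 of 6 and in 2.44% of promoters, TTGCNNAA, a form bound by C/EBP factors, in 2 of 6 (Cd68 and Fcgr3) and in 9.56%, and the TATA box TATAAA in 0 of 6 and in 12.4%. A match is a description of letters and not a binding site. Stretches upstream of the start are shown for 3 called markers, Fcgr3, Mrc1 and Lyz2, and for Cd163, which was not called, 5' to 3' on the strand of the gene, with TTCCTC, the reverse complement of GAGGAA, in capitals. They lie at chr1:171059404-171059553 (minus strand), chr2:14229264-14229391 (plus strand), chr10:117282322-117282422 (minus strand) and chr6:124304501-124304650 (plus strand). The start is the RefSeq start, which can differ from the end of the gene given above. The Fcgr3 stretch lies inside the span given for that gene. The Cd163 stretch runs past the first base of its gene, at 124304636.
Fcgr3: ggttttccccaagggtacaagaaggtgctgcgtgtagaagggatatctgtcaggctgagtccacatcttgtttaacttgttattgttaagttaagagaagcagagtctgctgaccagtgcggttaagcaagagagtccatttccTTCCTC
Mrc1: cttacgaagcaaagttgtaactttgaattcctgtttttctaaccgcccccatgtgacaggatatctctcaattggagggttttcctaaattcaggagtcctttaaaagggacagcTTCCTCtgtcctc
Lyz2: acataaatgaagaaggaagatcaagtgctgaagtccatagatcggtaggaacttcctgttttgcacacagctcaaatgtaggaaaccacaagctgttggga
Cd163: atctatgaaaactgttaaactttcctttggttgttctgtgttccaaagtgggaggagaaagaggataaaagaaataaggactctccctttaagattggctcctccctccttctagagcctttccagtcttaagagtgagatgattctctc
The match begins 6 bases before the RefSeq start in Fcgr3 and 35 bases before it in Mrc1. The stretches of Lyz2 and Cd163 hold none, although Lyz2 was called and Cd163 was not.

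Genes that work with the markers were taken from lists by role, and their counts stand beside 45.1% of all genes called higher as deposited and 27.6% after scaling. In the list of the CSF1 axis and lineage factors, 6 of 10 rose and 2 fell, with a median log2 fold change of 0.79, and after scaling 4 rose and 3 fell. Both ligands of the Csf1r product rose. Csf1 stood at 6.83, 4.97 and 3.64 FPKM in wild type and at 28.4, 23.8 and 27.0 FPKM in NICD2_Pax8 (log2 fold change 2.19, SE 0.20, limma adjusted p = 1.95e-04). Il34 stood at 7.82, 8.62 and 6.4 FPKM in wild type and at 24.3, 23.6 and 24.6 FPKM in NICD2_Pax8 (log2 fold change 1.55, SE 0.12, limma adjusted p = 1.19e-04). Neither ligand overlapped between the groups, in contrast to their receptor, and 49.9% of all genes were higher without overlap. The difference between ligand and receptor was not tested. Spi1, which encodes PU.1, stood at 9.67, 3.27 and 2.9 FPKM in wild type and at 11.2, 14.1 and 12.3 FPKM in NICD2_Pax8 (limma adjusted p = 0.0235, and 0.0607 after scaling), a rise of 2.38-fold with all libraries and of 4.07-fold when wild-type replicate 1 was left out. The members that fell were Maf and Tfec, and Maf, a transcription factor that renal tubules also express, went from 96.8 ± 24 to 34.1 ± 6.54 FPKM (SD, n = 3 each). Cebpa, a myeloid factor that fat and tubules also express, stood at 55.8, 22.8 and 14.8 against 38.2, 48.5 and 31.5 FPKM and did not pass. In this list 3 rose without NICD2_Pax8 replicate 1, and 3 without NICD2_Pax8 replicate 2. A member below 1 FPKM in every wild-type library cannot pass the filter in these settings.

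Among the Fc receptors and the partners of DAP12, 4 of 8 tested genes rose and 0 fell, a share near the 45.1% of all genes called higher. Trem2, a DAP12-coupled receptor for lipids and damaged cells, stood at 0.64, 0.28 and 0.21 FPKM in wild type and at 7.55, 7.48 and 6.44 FPKM in NICD2_Pax8 (log2 fold change 2.58, SE 0.16, limma adjusted p = 6.39e-05). Trem2 passed the filter only through NICD2_Pax8, which favours a rise, so its call adds no support to the count. Fcgr1, the high-affinity receptor for immunoglobulin G, rose from 1.61 ± 0.824 to 7.06 ± 0.604 FPKM (SD, n = 3 each). The relatives of Fcgr3 did not pass: Fcgr2b, the inhibitory receptor, stood at 29.2, 27.5 and 34.2 against 29.8, 33.2 and 36.6 FPKM, and Fcgr4 at 9.98, 6.44 and 4.46 against 12.1, 7.03 and 7.75 FPKM. Fcer1g, the signalling chain that pairs with Fcgr3, stood at 75.4, 21.2 and 17.3 FPKM in wild type and at 70.2, 74.8 and 71.6 FPKM in NICD2_Pax8 (limma adjusted p = 0.0726, and 1.49e-04 without wild-type replicate 1). The number that rose was 2 without NICD2_Pax8 replicate 2 and 2 without NICD2_Pax8 replicate 3. Trem2, below 1 FPKM in every wild-type library, was below the filter in both settings and so not tested there.

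In the list around the lipopolysaccharide receptor that CD14 serves, 6 of 8 tested genes rose and 0 fell, and after scaling 4 rose and 1 fell. Lbp, the protein that delivers lipopolysaccharide to CD14, stood at 5.29, 4.39 and 3.44 FPKM in wild type and at 18.2, 20.8 and 14.4 FPKM in NICD2_Pax8 (limma adjusted p = 2.92e-04). Tlr2 and the adaptor Myd88 rose 7.63-fold and 2.35-fold in mean FPKM. Ly86, which encodes a partner of the TLR4 relative CD180, stood at 14.5, 7.93 and 5.84 against 21.7, 15.8 and 19.2 FPKM (limma adjusted p = 0.0223, and 0.0711 after scaling). The direct partners of CD14 differed from these. Tlr4, at 0.75 to 1.06 FPKM in wild type and 0.96 to 1.54 FPKM in NICD2_Pax8, was below the filter and not tested. Ly96, which encodes the TLR4 partner MD-2, stood at 11.3, 9.11 and 8.19 against 10.1, 6.14 and 6.11 FPKM (limma adjusted p = 0.196). After scaling Ly96 was called lower (limma adjusted p = 0.0186).

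Genes of monocyte recruitment rose in 8 of 10 tested cases and fell in 0, and the counts were the same after scaling. Ccl2, the attractant of monocytes that carry its receptor Ccr2, stood at 1.12, 0.3 and 0.2 FPKM in wild type and at 55.6, 44.4 and 25.1 FPKM in NICD2_Pax8. Ccr2 stood at 2.18, 1.37 and 1.29 against 5.08, 4.48 and 5.22 FPKM (limma adjusted p = 8.90e-04). Cx3cr1, the receptor for the chemokine Cx3cl1 on resident macrophages and monocytes, stood at 3.16, 1.69 and 1.32 against 5.37, 6.77 and 7 FPKM, and Cx3cl1 itself rose 2.14-fold in mean FPKM. Plac8, in this list for its expression in monocytes, rose from 21.3 ± 3.47 to 129 ± 31.2 FPKM (SD, n = 3 each). None of these 5 genes overlapped between the groups, and 49.9% of all genes were likewise higher without overlap. For this list, the Fc receptor list and the lipopolysaccharide list, 0 genes were lower at an unadjusted limma p under 0.05, and 0 at a q under 0.05 in the authors' deposited table.

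Other genes of macrophages moved with the called markers in most cases: 10 of 13 tested rose and 1, Mertk, fell. The complement genes C1qa, C1qb and C1qc, made in the kidney by macrophages, rose 2.69-fold, 2.79-fold and 2.72-fold in mean FPKM. C1qa stood at 71.5, 37.7 and 28.4 FPKM in wild type and at 128.3, 130.8 and 111.1 FPKM in NICD2_Pax8 (limma adjusted p = 0.00539). As for the markers, wild-type replicate 1 was the highest wild-type library. Cd74, the invariant chain of antigen presentation, was the most abundant gene of this list, at 230.2 to 339 FPKM in wild type and 935 to 1327 FPKM in NICD2_Pax8.

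Genes of scavenging and tissue-resident macrophages, the setting in which Cd163 and Mrc1 are usually read, gave counts that depended on the setting. Of 13 tested, 5 rose and 0 fell as deposited, beside 45.1% of all genes called higher. After scaling 2 rose, Arg1 and Chil3, beside 27.6% of all genes. Both were below 1 FPKM in every wild-type library and passed the filter only through NICD2_Pax8, which favours a rise. By the authors' deposited table, Hmox1 and Retnla were lower at a q under 0.05. Hmox1, the haem-degrading enzyme, stood at 53.2, 24.6 and 29.1 against 26.2, 28.2 and 27.4 FPKM, so that wild-type replicate 1 alone stood out. Gas6, a ligand that bridges dying cells to the Mertk receptor, stood at 148.8, 149.6 and 142.7 against 216.1, 274 and 227.2 FPKM (limma adjusted p = 0.00234, and 0.0797 after scaling). Arg1 and Chil3, genes of alternative activation, stood at 0.05 to 0.1 and 0.05 to 0.14 FPKM in wild type and at 1.27 to 3.78 and 2.1 to 5.19 FPKM in NICD2_Pax8. Folr2, a receptor of resident macrophages, stood at 5.99, 3.51 and 3.22 against 1.94, 4.52 and 2.3 FPKM, and did not pass (limma adjusted p = 0.238). Lyve1, shared with lymphatic endothelium, stood at 4.29, 2.03 and 0.67 against 2.75, 4.42 and 2.45 FPKM, and did not pass either (limma adjusted p = 0.364). The count of the list was 8 without wild-type replicate 1, 3 without wild-type replicate 3, and 2 without each of the NICD2_Pax8 replicates 1, 2 and 3. Arg1 and Chil3 were below the filter, and so not tested, when a NICD2_Pax8 library was left out.

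Phagosome and lysosome genes, the compartment of Cd68, went both ways: of 17 tested, 5 rose and 5 fell, and after scaling 4 rose and 7 fell. The phagocyte oxidase subunit genes Cybb, Ncf1 and Ncf4, largely leukocyte genes, were among those that rose, as they did after scaling, while Cyba, a subunit that many other cells express, fell. Ncf4 stood at 2.26, 0.93 and 0.66 FPKM in wild type and at 4.29, 4.8 and 4.77 FPKM in NICD2_Pax8. The general lysosomal genes Lamp2, Ctsl and Lipa, which tubule cells also express, were among those that fell. Lamp2 stood at 338.4, 443 and 464.2 FPKM in wild type and at 212.7, 220 and 224.3 FPKM in NICD2_Pax8. Lamp1 and Ctsb, a lysosomal membrane protein and a lysosomal protease, did not pass, with Lamp1 at 504.8 to 644.2 against 468.5 to 602.5 FPKM and Ctsb at 416.6 to 529.5 against 473.8 to 541.2 FPKM.

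**Figure D4:**
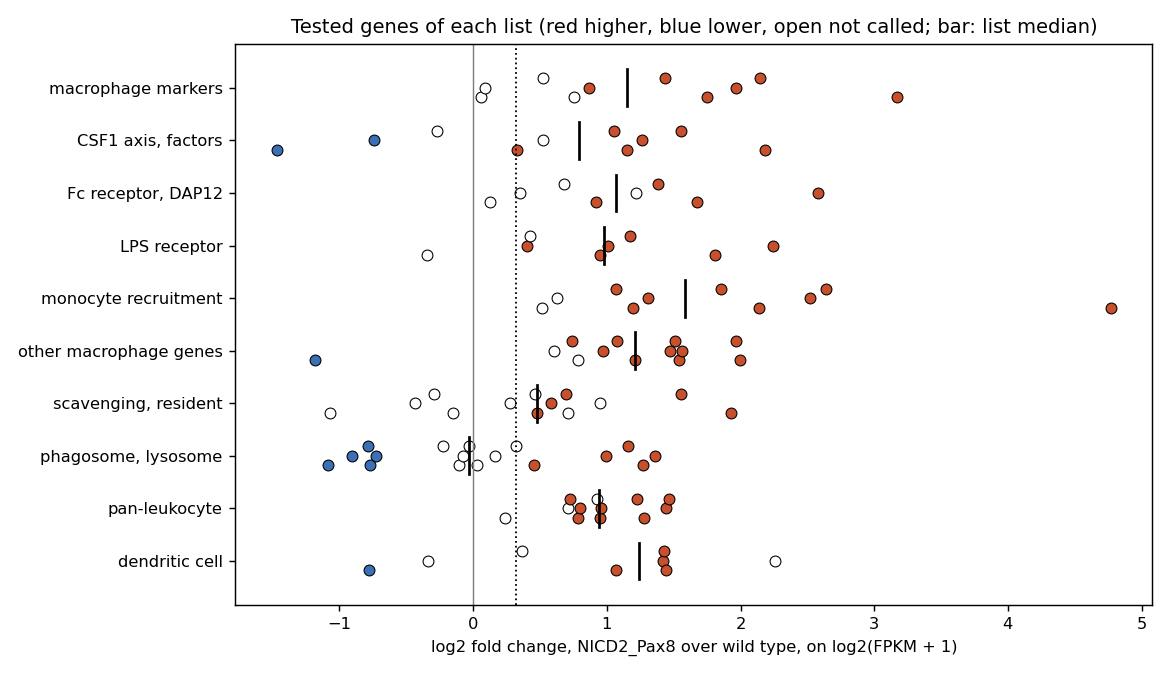
Log2 fold change of each tested gene by list, on the log2(FPKM + 1) scale; red points were called higher in NICD2_Pax8, blue points lower and open points not called, the bars are list medians and the dotted line is the median of all tested genes. The lists of monocyte recruitment and other macrophage genes have medians of 1.58 and 1.21, and the list of phagosome and lysosome genes has a median of -0.03.

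Levels of other leukocytes and of neighbouring tissues were read in the same libraries. Of 12 pan-leukocyte genes 9 rose and 0 fell with limma, with 0 lower at an unadjusted p under 0.05 and 0 in the authors' deposited table. Of all genes 45.1% were called higher and 16.2% lower. After scaling 3 rose, beside 27.6% of all genes, so the count did not exceed that share. The number was also 3 without wild-type replicate 2, without wild-type replicate 3 and without NICD2_Pax8 replicate 2, and it was 4 without NICD2_Pax8 replicate 3. All genes called higher in those settings numbered 4604 to 5197, against 6095 with all libraries. Without wild-type replicate 1 the number of pan-leukocyte genes was 12, and 11 with scaling in addition, beside 50.4% and 30.0% of all genes. Cd52, a surface peptide of lymphocytes and myeloid cells, stood at 62.0, 21.1 and 19.7 against 73.4, 89.0 and 86.3 FPKM, and Arhgdib, a signalling regulator of blood cells, at 28.7, 18.5 and 17.4 against 54.7, 52.2 and 50.3 FPKM. Ptprc stood at 5.53, 3.35 and 2.61 FPKM in wild type and at 4.95, 4.04 and 4.59 FPKM in NICD2_Pax8 (limma adjusted p = 0.392). Its groups overlapped through wild-type replicate 1. The pan-leukocyte levels moved with the macrophage markers over the libraries, and their part in the marker differences was not tested.

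Granulocyte markers were low: the 12 neutrophil genes summed to 2.6 to 4.32 FPKM in wild type and to 6.3 to 16.3 FPKM in NICD2_Pax8. The calprotectin genes S100a9 and S100a8 were called higher, at 1.67 to 5.64 and 1.67 to 4.6 FPKM in NICD2_Pax8. The S100a8 call was lost in 10 of 14 alternatives, among them scaling (limma adjusted p = 0.0851). Without NICD2_Pax8 replicate 1, S100a8 was not called and S100a9 was below the filter. The q in the authors' deposited table was 0.236 for S100a8 and 0.0506 for S100a9. The defining genes Ly6g, Mpo and Elane stood at no more than 0.09 FPKM in any library. The part of granulocytes in the level of Lyz2, which they also carry, was not tested. The 9 B cell genes found summed to 1.4 to 3.46 FPKM over the 6 libraries, and 0 of them passed the filter. The 12 natural killer and mast cell genes, of which the first type also carries Tyrobp, summed to 9.65 to 17.4 FPKM in wild type and to 5.92 to 11.1 FPKM in NICD2_Pax8. Their natural killer gene Nkg7 stood at 2.24 to 3.72 against 1.95 to 4.34 FPKM, and Kit, a mast cell gene that some tubule cells also express, fell from 3.8 to 4.25 FPKM to 1.3 to 2.42 FPKM. The 7 lymphatic endothelial genes, a cell type that also carries Mrc1, summed to 13 to 17.3 FPKM in wild type and to 5.99 to 9.31 FPKM in NICD2_Pax8. Their part in the level of Mrc1 was not tested. Ccl21a, a chemokine of lymphatic vessels, fell from 7.01 to 7.86 FPKM to 0.82 to 1.91 FPKM.

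**Figure D5:**
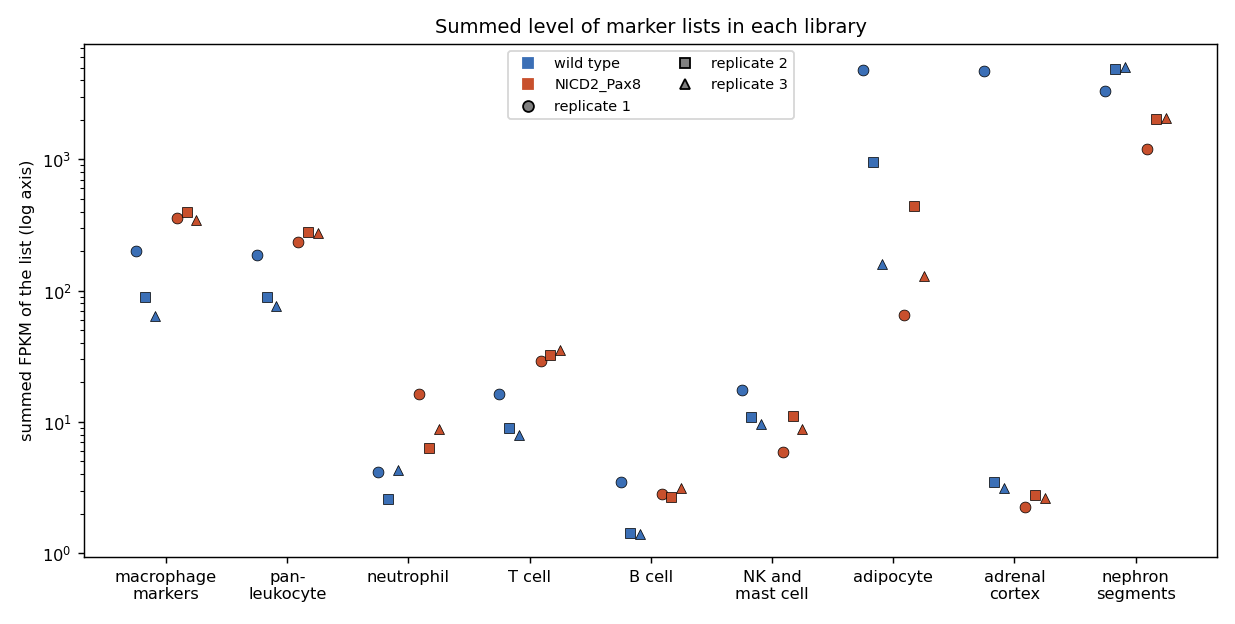
Summed FPKM of marker lists in each library, on a log axis, for wild type (blue) and NICD2_Pax8 (red). The macrophage and pan-leukocyte sums are higher in every NICD2_Pax8 library than in every wild-type library, and the adrenal sum of 4701 FPKM belongs to wild-type replicate 1 alone.

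The genes whose profile over the 6 libraries was most like the mean profile of the 10 markers were named by the smallest root mean square distance between centred log2(FPKM + 1) values. They were Mmp15, Clec12a, Tnfrsf1a, Fermt3, Esyt1 and Obsl1, at distances of 0.0745 to 0.089. Whether the nearest genes are restricted to myeloid or blood cells was not tested. Mmp15, the nearest, stood at 2.81, 1.18 and 0.78 FPKM in wild type and at 5.37, 5.82 and 4.57 FPKM in NICD2_Pax8. Tnfrsf1a stood at 47.01, 28.64 and 23.24 against 82.13, 86.29 and 82.07 FPKM. Esyt1 stood at 10.96, 7.15 and 4.45 against 16.43, 18.13 and 16.14 FPKM, and Obsl1 at 2.94, 1.06 and 0.84 against 4.83, 5.29 and 4.82 FPKM. Clec12a, an inhibitory lectin of myeloid cells, stood at 3.27, 1.32 and 0.76 FPKM in wild type and at 5.08, 4.91 and 5.08 FPKM in NICD2_Pax8. Fermt3, an integrin activator of blood cells, stood at 3.47, 1.53 and 1.01 against 4.93, 5.84 and 4.93 FPKM. Of the markers themselves Cd68 lay nearest to the mean profile, at 0.204, and Cd14 and Csf1r farthest, at 0.973 and 0.823.

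In the authors' deposited table, where q came from DESeq2 and the balance of the directions was even, with 21.3% of genes higher and 21.5% lower at a q under 0.05, 6 markers were higher. In the authors' deposited table their log2 fold changes were 3.005 for Cd14, 1.70 for Fcgr3, 1.42 for Lyz2, 1.34 for Tyrobp, 1.14 for Cd68 and 0.74 for Mrc1. The others stood at 0.51 for Aif1, -0.0057 for Adgre1, -0.30 for Csf1r and -0.30 for Cd163 in the authors' deposited table, with q of 0.46 or more.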

How the data were processed

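Kidneys were flash frozen, RNA was taken with Trizol, and TruSeq libraries were built from it, per the labels' protocols. The authors deposited a table with an FPKM column for each library, as the file headers call it. Log2 fold changes, p-values and q-values for the group comparison are the authors' own, and the q-values came from DESeq2, per the file headers. Bowtie 0.12.2 and build mm8 are named in the submitters' processing notes. Since 88.2% of 22002 gene identifiers that matched RefSeq share both ends with GRCm38, positions are read as GRCm38. Rows without values (4370 of 23873) were left out, and 0 library columns were unassigned. How fragments that map to several genes were counted is not given in the sources used here.

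The 13500 genes that reached 1 FPKM in 3 libraries were fitted with limma 3.58.1 in R 4.3.3 on log2(FPKM + 1) with a mean-variance trend, with two-sided tests and no term besides genotype. The pseudocount of 1 understates the change of low genes. A gene below 1 FPKM in every wild-type library could pass the filter only through NICD2_Pax8, which favours a rise. Such a gene was not tested once a NICD2_Pax8 library was left out, which lowers the counts of those settings. Folds are ratios of mean FPKM, and standard errors and 95% intervals are those of limma. On simulated data for this comparison with 13500 genes 86% of 100 genes set to change by log2 1 were called and 97% of 100 set to change by log2 2, with 4.19% of calls false. The simulation changed only those genes, drew independent noise, and had no shift of all genes and no outlying library. Its rates need not hold for these data, which had such a shift and such a library. Depth was estimated from single-transcript genes, as the step that brings low values nearest to whole fragments. At that step 72.5% to 79.0% of values of up to 8 fragments came within 0.15 of one. Fragment numbers rest on this estimate and cover counting error only.

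The markers and the 17 companion lists were chosen with earlier results of these data known. Named genes are the 10 markers, the 2 most abundant tested genes of each list, partners set by role, and the 6 genes nearest in profile. Any other gene given as an example was picked with its values in view. Alternatives were pseudocounts of 0.1 and 5, no filter, median-of-ratios scaling, quantile normalization, a replicate block, leaving out each library in turn, scaling without wild-type replicate 1, and an adjusted p of 0.01. Some members of the companion lists are counted but not reported by name here.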

Additional observations from a re-analysis of the deposited data

How the results depend on the processing

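The number of markers called higher, 6, was also 6 under both other pseudocounts, without the filter and under both scalings. It was 3 (Cd14, Fcgr3 and Tyrobp) at an adjusted p under 0.01. There 4507 of all 13500 genes were called higher, a share no smaller than that of the markers. With each library left out the number of markers ran from 5 to 8, and that of all genes called higher from 4604 to 6644. The number called lower was 0, and 1 (Csf1r) with scaling and without wild-type replicate 1. Over all genes, median-of-ratios scaling gave 3725 higher and 3642 lower, quantile normalization 3866 and 3558, and scaling without wild-type replicate 1 gave 3953 and 3780, against 6095 and 2190 as deposited. Of 131 companion genes tested, 63 were called higher, a share near the 45.1% of all genes. With each library left out the number ran from 41 to 77.

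The deviations of same-numbered libraries from their group means correlated at 0.0951, -0.0498 and 0.0056 over 13500 genes. The authors' comparisons of single libraries join the same numbers. Low correlations cannot exclude a pairing, and whether the libraries were paired is not known. With the replicate number as a block 6 markers and 7982 of all genes were called, against 8285 without it.

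Signs changed for genes that were not called. After median-of-ratios scaling log2 fold changes were -0.27 for Csf1r, -0.11 for Cd163, -0.22 for Ctsb, -0.24 for Fcgr2b, -0.16 for Nkg7, -0.065 for Ptprc and -0.067 for Umod. With quantile normalization they were -0.26 for Csf1r, -0.30 for Cd163, -0.10 for Fcgr2b, -0.059 for Fcgr4, -0.25 for Nkg7 and -0.16 for Ptprc. Scaling without wild-type replicate 1 gave -0.56 for Csf1r, -0.17 for Ctsb, -0.33 for Fcgr2b, -0.034 for Nkg7 and -0.48 for Umod. With single libraries left out, the lowest and highest values were -0.13 and 0.26 for Csf1r, -0.23 and 0.32 for Cd163, -0.51 and 0.025 for Hmox1, -0.18 and 0.047 for Lamp1, -0.10 and 0.33 for Nkg7, and -0.027 and 0.57 for Umod. The cause was not tested. Among the markers the estimated fragments were fewest for Cd163 and Aif1, with 19.1 and 25.9 in wild-type replicate 3.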

Other observations

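Markers of dendritic cells, which share Csf1r and antigen presentation with macrophages, went both ways. Of 8 tested, 4 rose (Itgax, Ciita, H2-Aa and H2-Eb1) and 1 fell, beside 45.1% and 16.2% of all genes tested. H2-Aa, a class II antigen-presenting chain, stood at 138.2, 109.6 and 94.7 FPKM in wild type and at 250.7, 341.4 and 326.7 FPKM in NICD2_Pax8 (limma adjusted p = 7.38e-04). Clec9a, a receptor of the conventional type that presents antigen to CD8 T cells, was the member that fell, from 1.68, 1.4 and 1.26 to 0.31, 0.46 and 0.51 FPKM (limma adjusted p = 0.00278). Clec9a passed the filter only through the wild-type libraries, which favours a fall, and was below the filter once a wild-type library was left out. Xcr1, another gene of that type, stood at 0.32 to 0.6 FPKM in wild type and 0.06 to 0.21 FPKM in NICD2_Pax8 and was not tested.

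Among 12 T cell genes 4 were tested and 4 rose, beside 45.1% of all genes tested. After scaling 2 of them, Cd8a and Lck, rose, beside 27.6% of all genes. A gene below 1 FPKM in wild type is tested only if NICD2_Pax8 libraries bring it past the filter. Such counts therefore favour a rise. Cd8a stood at 1.05, 1.09 and 0.8 FPKM in wild type and at 8.84, 6.93 and 9.19 FPKM in NICD2_Pax8 (log2 fold change 2.23, limma adjusted p = 7.28e-05), while its partner chain Cd8b1 stood at 0.79 to 0.91 and 0.66 to 1.51 FPKM and was not tested. Cd8a can also be carried by some dendritic cells.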
